A study of Caenorhabditis elegans with 4 samples.

Results

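Chromosome V carried 284 of the 1976 nuclear regions at which PQN-85 peaks were listed in mixed-stage embryos of the nematode Caenorhabditis elegans. PQN-85, also named SCC-2, is the worm member of the Scc2/NIPBL family, whose proteins load cohesin onto chromosomes. The members were all rows on V in the 3 deposited peak lists, from ChIP replicate 1 (263 peaks), ChIP replicate 2 (119 peaks) and the whole series (154 peaks). These 536 peaks were joined into regions wherever peaks of different lists shared at least 1 bp. Chromosomes II, III, IV and X, with 1363 regions, served as the background.

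Chromatin immunoprecipitation and sequencing (ChIP-seq) was performed on wild-type N2 embryos of both sexes grown at 20 degrees and fixed in 2% formaldehyde for 30 min. The 2 ChIP samples were made with a purified polyclonal antibody raised in rabbits against PQN-85, and 2 input DNA samples accompanied them. No mutant, treated or depleted animals were among these samples, and the labels do not say whether the replicates were separate cultures. Only peaks are described here: input signal at the regions was not analysed, and the sequencing depth is unknown from peak lists.

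Cohesin is a ring complex that holds sister chromatids together and shapes chromatin into loops, and the Scc2/NIPBL loader, working with its partner MAU-2, is needed to put it onto DNA. In yeast and in vertebrate cells the loader has been mapped to active promoters, and in yeast also to tRNA genes. C. elegans autosomes have gene-dense centres with little recombination and arms that are richer in repeats. V is the longest chromosome of the worm. In the RefSeq gene table of WBcel235 it held 4995 protein-coding genes, 242 of the 292 genes named srh and 179 of the 226 named str, which are families of chemoreceptor genes. It also held 15 of the 16 5S ribosomal RNA genes named rrn-4 and all 12 genes named sls-1, which encode the SL1 leader RNA used in trans-splicing. The 5S and SL1 genes form a tandem array on this chromosome. No gene was assigned to a peak, since that table is on another build than the WS220 coordinates of the peaks.

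PQN-85 regions were sparser on V than on the background chromosomes, and the shortage was in narrow regions. V held 13.6 regions per Mb over its 20.9 Mb, against 21.2 on the 4 background chromosomes together, whose single values ran from 18.3 (II) to 23.9 (X). The 284 regions were 0.70 times the number its length gives (95% interval 0.63 to 0.78, exact binomial adjusted p = 2.6e-11). V had 24.6% of the length of V and the background together, and the expected number was that share of their regions. It counts the V regions too, so ratios to expectation lie closer to 1 than ratios of the densities. By list, V had 12.6 peaks per Mb in replicate 1 against 19.2 in the background, 5.69 against 7.03 in replicate 2, and 7.36 against 10.5 in the series-level list. The ratio to the number that length gives was 0.72 for replicate 1 (interval 0.64 to 0.80, exact binomial test, adjusted p = 1.4e-09). For the series-level list the ratio was 0.75 (interval 0.65 to 0.87, exact binomial test, adjusted p = 0.00014). For replicate 2 it was 0.85 (interval 0.72 to 0.99) and missed the threshold after adjustment over the 29 tests of V against the background (exact binomial p = 0.041, adjusted p = 0.070). These tests treat peaks as independent, whereas peaks cluster and the 3 lists share many of them, so the p-values are too small and the lists do not replicate each other in full.

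The lower density was seen in regions under 1 kb. V carried 243 of them, 11.6 per Mb, where II had 16.7, III 21.8, IV 17.8 and X 21.9. Their number was 0.66 times that expected (0.59 to 0.74, exact binomial adjusted p = 1.7e-13, a comparison added after the data were seen). Regions of 1 kb or more numbered 41, or 1.96 per Mb, which lay within the range of the other chromosomes, from 1.31 on III to 1.98 on X. Their ratio was 1.12 with an interval that spans 1 (0.84 to 1.44, exact binomial adjusted p = 0.46). By base pairs covered V lay closer to its share of length than by numbers. Its regions covered 193 kb, 0.92% of the chromosome, against 1.11% of the background. The ratio of observed to expected base pairs was 0.87 in replicate 1, 1.07 in replicate 2 and 1.01 in the series-level list.

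**Figure D1:**
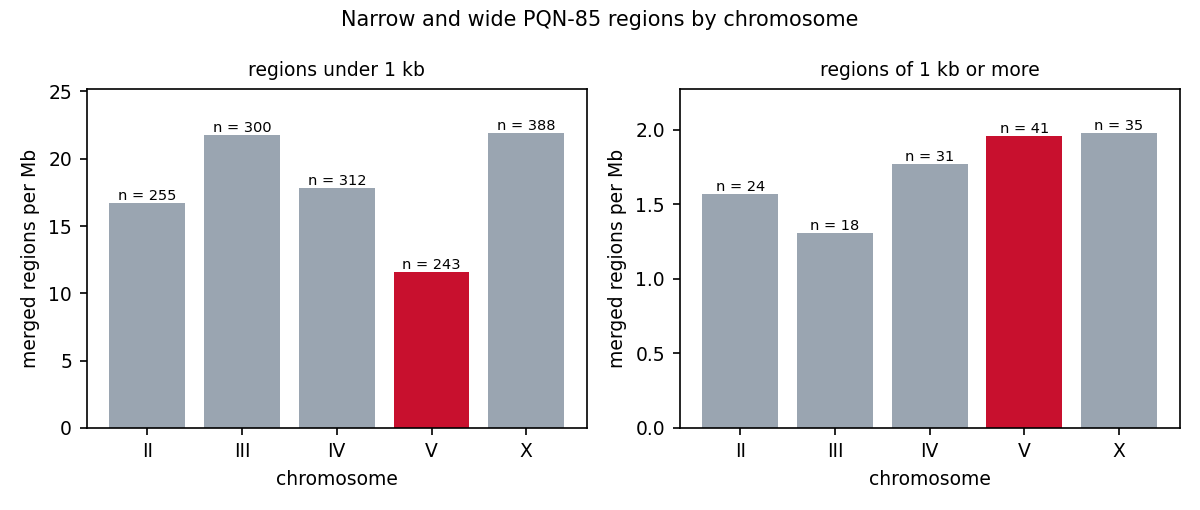
Merged PQN-85 regions per Mb of chromosome, for regions under 1 kb (left) and of 1 kb or more (right), with the number of regions above each bar. V (red) is lowest for narrow regions, at 11.6 per Mb, and at 1.96 per Mb lies next to X for wide ones.

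Against gene number the difference was larger, and V has the most protein-coding genes of these chromosomes. V held 56.9 regions per 1000 protein-coding genes, while II had the next lowest value with 81.0 and X the highest with 155. The shortage was largest among regions of replicate 1 alone, with 5.97 per Mb on V against 11.1 in the background (ratio to expectation 0.61, 0.51 to 0.71, exact binomial adjusted p = 2.2e-10, added after the data were seen). Regions found in all 3 lists had 3.68 per Mb against 4.90 (ratio 0.80, 0.64 to 0.97, exact binomial adjusted p = 0.057, added likewise), which missed the threshold.

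Along V the peaks concentrated in a short stretch left of the midpoint and were sparse in several others. Of 10 equal bins of 2.09 Mb each, numbered from the left end, bin 5 (8.37 to 10.46 Mb) held 59 of the 284 regions, 28.2 per Mb, more than any other bin. Each list placed many peaks there, with 60 in replicate 1, 25 in replicate 2 and 34 in the series-level list. The background had 23.6 regions per Mb in its bin 5, from 18.6 on X to 29.5 on II, which lay above V. In replicate 1 II was also level with V in that bin, at 28.8 peaks per Mb against 28.7. In replicate 2 V had 11.9 there against 2.82 (X) to 6.53 (III). The series-level list gave 16.2 on V against 6.21 (X) to 14.9 (IV). Bin 9 (16.7 to 18.8 Mb) was the next densest of V with 35 regions, 16.7 per Mb against 18.4 in the background. In replicate 2 bin 9 held 29 peaks and led all V bins, at 13.9 per Mb against 5.13 in the background. Bins 2 and 10 were low in every list, and bin 4 was low in replicate 2 (5 peaks) and in the series-level list (9 peaks). Bin 2 (2.09 to 4.18 Mb) held 11 regions, with 10, 3 and 2 peaks in replicate 1, replicate 2 and the series-level list, and bin 10 held 20 regions, with 16, 5 and 9 peaks. The bin 2 low was shared by II, at 5.24 regions per Mb against 5.26 on V. Bin 10 was not low elsewhere, with 17.7 to 34.8 regions per Mb on the other 4 chromosomes against 9.56 on V.

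**Figure D2:**
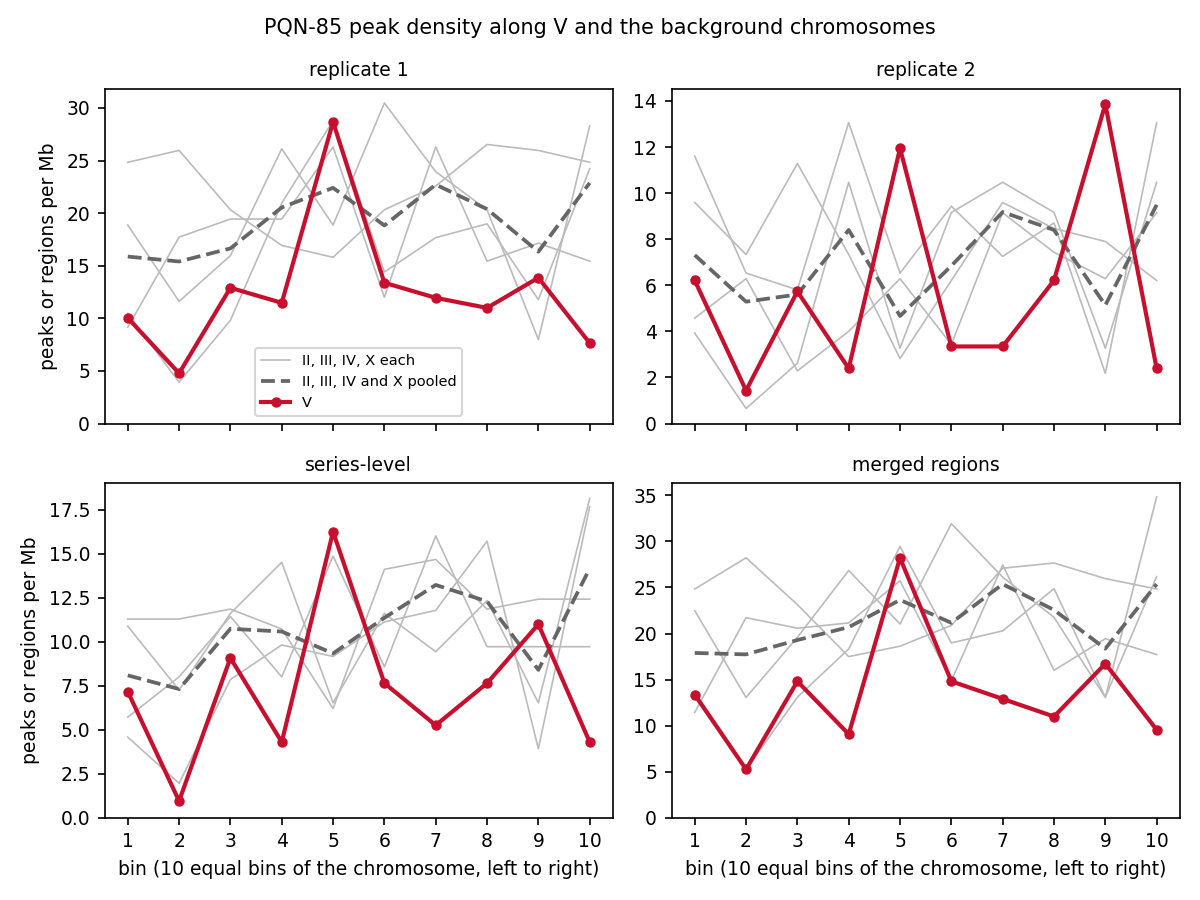
Peaks per Mb in 10 equal bins of each chromosome, from left to right, for the 3 lists and the merged regions. V (red, points) rises to 28.2 merged regions per Mb in bin 5 and falls to 5.26 in bin 2, while the pooled background (dashed) stays between 17.7 and 25.4, and thin grey lines are the single background chromosomes.

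When the chromosome was cut into 3 equal sections, the deficit passed the test in every section of the merged regions. The left section held 78 regions (ratio to expectation 0.66, 0.53 to 0.81, exact binomial adjusted p = 6.2e-05), the middle 118 (0.78, 0.66 to 0.92, exact binomial adjusted p = 0.0062) and the right 88 (0.65, 0.53 to 0.78, exact binomial adjusted p = 8.9e-06). In replicate 1 and in the series-level list the middle section alone missed the threshold, with ratios of 0.85 in both (exact binomial adjusted p = 0.070 and 0.20). None of the 3 sections passed in replicate 2, whose ratios were 0.73, 0.86 and 0.93 from left to right (exact binomial adjusted p from 0.073 to 0.68).

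The share of peaks in the middle section was compared with that on the background. In replicate 1, 45.6% of V peaks lay in the middle section against 36.8% of background peaks (Fisher's exact adjusted p = 0.021), but with X left out of the background the difference was 4.89 percentage points and did not pass (adjusted p = 0.25). The shares were 33.6% and 33.2% in replicate 2 (Fisher's exact adjusted p = 1.0) and 41.6% and 35.8% in the series-level list (Fisher's exact adjusted p = 0.24). For the middle 20% of the chromosome, which takes in bins 5 and 6, V exceeded the background by 12.0 percentage points in replicate 1, 10.5 in replicate 2 and 12.9 in the series-level list, and each difference passed (Fisher's exact adjusted p = 0.00021, 0.022 and 0.0021). Only bin 5 of these bins lay above the background per Mb. The ratios of its densities, V to background, were 1.28, 2.56 and 1.74 in replicate 1, replicate 2 and the series-level list. Bin 6 lay below the background, with 0.71, 0.49 and 0.67. Of the 59 regions in bin 5, 38 lay in chains of 3 or more regions at most 10 kb apart.

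Empty stretches were common on V. Of its 210 windows of 100 kb, 75 held no region (35.7%), against 124 of 644 background windows (19.3%). The chromosome had 30 gaps of over 200 kb between neighbouring regions, where II had 16, III 11, IV 14 and X 5. These numbers of gaps are not scaled by length, and V is the longest chromosome. Empty windows and long gaps also depend on the number of regions per Mb, which was low on V, and were not adjusted for it. The longest on V ran from 2455669 to 2890694 (435 kb), from 20005846 to 20424178 (418 kb) and from 15465332 to 15873695 (408 kb). The longest gap on II was larger, at 909 kb, while it was 389 kb on III, 401 kb on IV and 270 kb on X. Among windows of 1 Mb, the one from 9000001 to 10000000 was the densest with 28 regions. Those from 2000001 to 3000000 and from 3000001 to 4000000 were the emptiest, with 5 each. On the right arm, the window from 17000001 to 18000000 held 21 regions, of which 12 were in all 3 lists, the highest such number of any 1 Mb window of V.

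The share of V regions in all lists did not differ from the background beyond the test, while V peaks of replicate 1 were found in replicate 2 more often. Of the 284 regions, 77 were in all 3 lists (27.1%, 22.0 to 32.7), beside 23.1% of background regions (Fisher's exact adjusted p = 0.21). Replicate 1 alone held 125 regions (44.0%), the series-level list alone 29 (10.2%) and replicate 2 alone 5 (1.76%). The pairs of lists held 25 (replicate 1 and series-level), 12 (both replicates) and 11 (replicate 2 and series-level). Regions in all 3 lists had a median width of 810 bp on V, against 302 bp for those of replicate 1 alone and 163 bp for those of the series-level list alone. They made up 54.5% of the base pairs that V regions covered. By section, all 3 lists held 25.6% of regions on the left, 25.4% in the middle and 30.7% on the right, and these intervals overlapped.

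Replicate 2 held 111 of the 263 replicate 1 peaks on V (42.2%, 36.2 to 48.4). The share was 30.4% over the background chromosomes, which ranged from 29.0% (X) to 32.6% (III) (Fisher's exact adjusted p = 0.0010). In the other direction the difference did not pass, with 102 of 119 replicate 2 peaks found in replicate 1 (85.7%, 78.1 to 91.5) against 84.5% (Fisher's exact adjusted p = 0.92). The replicate 1 difference depended on how clustered peaks were treated. With peaks within 500 bp joined it was 8.53 percentage points and passed (Fisher's exact adjusted p = 0.036), but it did not pass in 2 other settings. Without chains of 3 or more regions it was 3.47 percentage points in place of 11.8 (Fisher's exact adjusted p = 0.43, added after the data were seen), and with peaks within 5000 bp joined it was 2.33 (Fisher's exact adjusted p = 0.65). Replicate 1 peaks were also split by score, in classes added after the data were seen. In the middle 60% of the list, 33.8% of 151 V peaks were shared against 21.3% (Fisher's exact adjusted p = 0.0053). In the highest-scoring 20% the share was 85.1% of 67 V peaks against 80.2% (Fisher's exact adjusted p = 0.53). In the lowest-scoring 20% it was 6.67% of 45 V peaks against 10.4% (Fisher's exact adjusted p = 0.66). The outer classes held fewer V peaks.

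**Figure D3:**
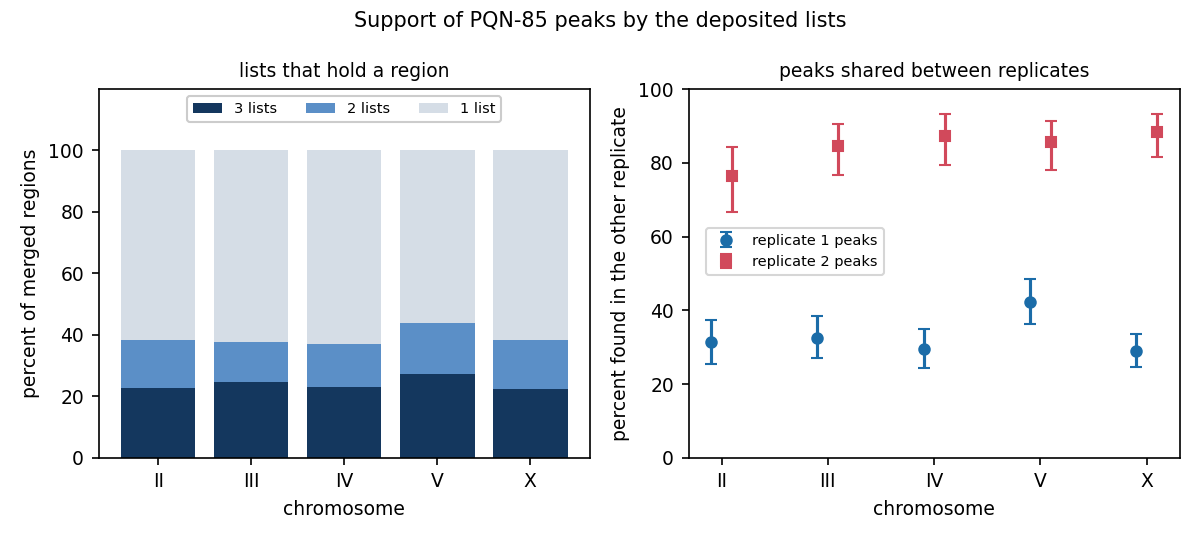
Left, percent of merged regions on each chromosome that 3, 2 or 1 of the lists hold. Right, percent of each replicate's peaks that overlap a peak of the other replicate, with exact 95% binomial intervals, in which replicate 1 peaks on V reach 42.2% against 29.0% to 32.6% on the other 4 chromosomes.

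The ranks of V peaks were compared with those of the background in each list. The deposited score is the peak caller's own value, of a quantity that no header names, and it is used here only to rank peaks within a list. The median V peak of replicate 1 stood at the top 42.0% of its list and that of replicate 2 at the top 47.6%, with 47.5% in the series-level list. The medians of the background peaks stood at 50.8%, 49.0% and 49.5% in that order. In replicate 2 IV (46.2%) and X (47.1%) stood higher than V, as did IV (46.6%) in the series-level list. In replicate 2, 35 of 119 V peaks were among the highest-scoring 20% of the list (29.4% against 19.0% of background peaks, Fisher's exact adjusted p = 0.037). The share was 25.5% against 19.2% in replicate 1 (Fisher's exact adjusted p = 0.058) and 22.7% against 19.9% in the series-level list (Fisher's exact adjusted p = 0.49). Of the 10 highest-ranked replicate 2 peaks 5 lay on V, which held 17.6% of that list, and of the 100 highest 26 did. The numbers were closer to the share of V in the other lists. V held 17 of the 100 highest replicate 1 peaks against 14.7% of the list, 20 of the 100 highest series-level peaks against 15.3%, and 13.5% of the 50 highest series-level peaks with ties. The replicate 2 difference was 4.98 percentage points without chains of regions (Fisher's exact adjusted p = 0.45, added after the data were seen).

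Where a V region held exactly 1 peak of each replicate, which were 71 regions chosen for that overlap, the midpoints lay a median of 21.5 bp apart, and 84.5% were within 100 bp. Across these regions Spearman's rho was 0.64 for the scores and 0.78 for the widths, and Pearson's r was 0.64 for log10 scores. The regions come from the same pair of libraries, so these values describe the lists and carry no test. The same rho for scores ranged from 0.49 (X) to 0.73 (II) on the background chromosomes. Series-level peaks lay slightly to the left, with a median midpoint difference (series-level minus replicate) of -23.5 bp to replicate 1 (n = 81) and -20 bp to replicate 2 (n = 68). Within 4 equal stretches of V this median lay between -9.5 and -34.5 bp.

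**Figure D4:**
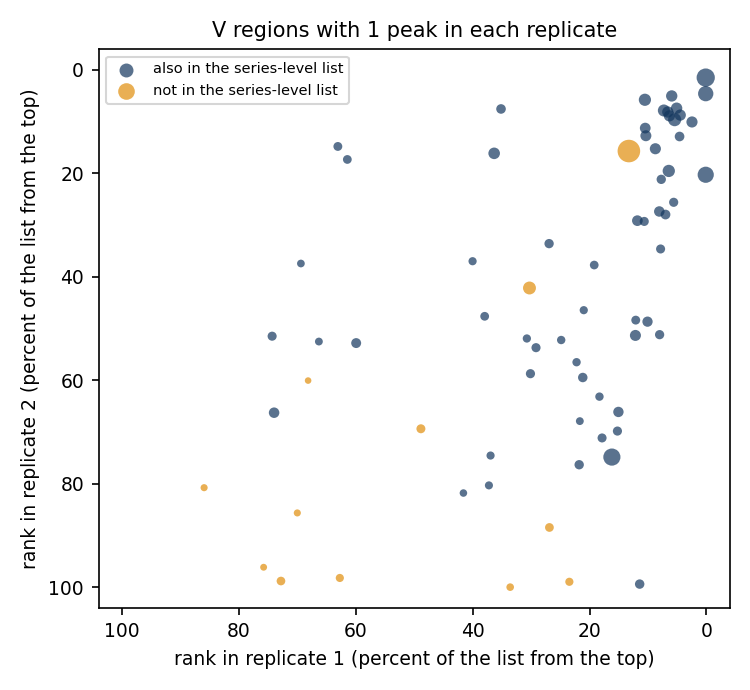
Rank within each replicate list, as percent of the list from the top, of the 71 V regions with exactly 1 peak in each replicate, where point area grows with region width. The highest ranks are at the top right. The largest orange point, at the top 13.3% of replicate 1 and the top 15.7% of replicate 2, is the 6570 bp region that the series-level list lacked.

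Of the 10 regions with the highest series-level scores on V, 5 were 2 kb or wider and 5 were narrower. Coordinates are on WS220. The 2754 bp region from 5283172 to 5285925 had the highest series-level score of the chromosome (58.52, rank 7 of 1006), and scored 3100 in replicate 1 (tied at rank 2) and 1031.06 in replicate 2 (rank 31). Each list held it as 1 peak, of 2722, 2716 and 2717 bp. The next 2 sites belonged to a group of 4 regions between 17115342 and 17132160 on the right arm, and all 4 were in all 3 lists. They held 4 of the 10 highest series-level scores on V.

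Within that group of 16.8 kb, the largest region ran from 17119900 to 17126673 (6774 bp), with scores of 3100 in both replicates and 53.14 in the series-level list. Its neighbour from 17128044 to 17132160 (4117 bp) scored 3100 in replicate 1, 2023.32 in replicate 2 and 54.68 in the series-level list. The score of 3100 was a tied value at rank 2, held by 4 V peaks of replicate 1 and 3 of replicate 2. It does not tell the tied peaks apart. The smaller regions from 17115342 to 17116151 (810 bp) and from 17117736 to 17118975 (1240 bp) scored 1162.5 and 1764.17 in replicate 1, 507.7 and 635.22 in replicate 2, and 40.66 and 38.53 in the series-level list. The outer boundaries of each region differed by at most 101 bp between the lists. Whether the group lies in the 5S and SL1 array, and how the inputs read there, was not tested.

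The other sites of the 10 highest lay outside that group. The 4553 bp region from 9086724 to 9091276 also ranked high in the series-level list (52.48, rank 13) and scored 3100 in replicate 2, where it was 2 peaks, while replicate 1 split it into 6 peaks with a top score of 1755.53. Towards the left end of V, the region from 264961 to 267315 (2355 bp) scored 1766.58, 837.81 and 37.86 in replicate 1, replicate 2 and the series-level list, with similar ranks of 43, 42 and 47. Narrower sites completed the 10 highest. They ran from 1104543 to 1105266 (35.74 in the series-level list), from 12509890 to 12510566 (34.76) and from 1637854 to 1639098 (33.07). The site at 12509890 ranked 59 in the series-level list but 272 of 1787 in replicate 1 and 472 of 676 in replicate 2.

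Wide peaks made up a larger share on V in each list, and the difference did not pass the test at a width of 2 kb. Of the 284 regions, 15 were 2 kb or wider (5.28%, 2.99 to 8.56), beside 2.86% of background regions. They covered 33.7% of the base pairs in V regions. Among peaks, 4.94% were 2 kb or wider in replicate 1 against 2.51% in the background, 10.1% against 6.42% in replicate 2 and 7.14% against 3.24% in the series-level list (Fisher's exact adjusted p = 0.070, 0.21 and 0.070). At a width of 1 kb V exceeded the background by 5.45, 13.4 and 8.18 percentage points in that order, and all 3 differences passed (Fisher's exact adjusted p = 0.017, 0.0055 and 0.011). Such shares also depend on the number of narrow peaks, which was low on V. Per Mb, V held 0.717 regions of 2 kb or wider against 0.607 in the background.

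The lists cut the widest regions differently. The widest of V, from 7916870 to 7925029 (8160 bp), was a single 8148 bp peak in the series-level list, 2 peaks in replicate 2 (scores 1309 and 3100) and 7 peaks in replicate 1 (207.54 to 2990.79). Its series-level score of 30.45 ranked only 78. The next, from 10605618 to 10612532 (6915 bp), was split into 2 peaks at nearly the same base in all lists, with second peaks starting at 10610023, 10610025 and 10610020. The left of the pair ranked 31 in replicate 1 and 8 in replicate 2, and 209 in the series-level list. Another very wide region, from 3434571 to 3441140 (6570 bp), was 1 peak in each replicate (475.48 and 444.96) and was absent from the series-level list. It lay in bin 2, directly to the right of a gap of 335 kb. Width and rank did not go together at every site. The region from 4333241 to 4336706 (3466 bp) ranked 29 in replicate 1 and 19 in replicate 2 but 205 in the series-level list. The region from 17308546 to 17311685 (3140 bp) scored 3100 in replicate 1 and 361.19 in replicate 2 (rank 137). The region from 5073242 to 5076829 (3588 bp) ranked 289 of 1787 in replicate 1 (the top 16.2%), 506 of 676 in replicate 2 and 577 of 1006 in the series-level list. The one from 8699278 to 8702935 (3658 bp) was in replicate 1 alone, at rank 1084. Of the 15 regions, 11 were in all 3 lists, beside 33 of the 39 background regions of 2 kb or wider. On V, 6 of the 15 lay in the left section, 5 in the middle and 4 on the right.

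Clusters held 94 of the V regions (33.1%), beside 30.2% of background regions. That share lay within the range of the background chromosomes, from 23.9% (X) to 41.6% (II). A cluster was a chain of at least 3 regions whose neighbours lay at most 10 kb apart, and V had 21 of them, of which 8 lay in the middle section. Chains took in 32.7% of the V peaks of replicate 1, 48.7% of those of replicate 2 and 45.5% of those in the series-level list. No such shares by list were computed for the background, so these 3 values describe V only. Of the 77 V regions in all 3 lists, 38 lay in chains. Regions that were both in a chain and in all 3 lists made up 13.4% of V regions and 6.97% of background regions. Clustered regions are not independent, so no test was made. How the share of V regions in chains compared with the background depended on the distance of 10 kb. With neighbours at most 5000 bp apart it was 28.9% on V, and 16.1% (X) to 29.0% (II) on the background chromosomes. At 20000 bp it was 39.4% on V, below II (53.8%), III (47.5%) and IV (43.1%) and above X (36.2%).

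The largest chain, from 9422665 to 9438969, held 13 regions in 16.3 kb, and was weak. Its 11 replicate 1 peaks scored 51.18 to 249.3, its 7 replicate 2 peaks 50.66 to 187.4 and its 7 series-level peaks 3.16 to 7.29. Only 3 of the 13 were in all lists, and the best rank in replicate 1 was 484. The next, from 17384108 to 17394535, held 12 regions in 10.4 kb, of which 6 were in all lists. Its first region, 1280 bp wide, was strong, with scores of 881.46, 730.9 and 26.95 in replicate 1, replicate 2 and the series-level list. The other peaks of that chain were narrow, and replicate 2 listed 13 there against 12 in replicate 1, although its whole list was the shorter one.

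A pair of chains in bin 5 had similar spacing of their wide sites. The chain from 8847129 to 8863252 held 6 regions and the one from 8889115 to 8898677 held 7, with 25.9 kb between them. In the first, 3 regions of 1307, 1266 and 1583 bp were in all lists, with midpoints 2.57 and 3.04 kb apart. In the second, 4 regions of 1902, 1300, 1522 and 1284 bp were in all lists, with midpoints 2.36, 3.04 and 2.56 kb apart. The highest scores were 1065.24 and 1197.74 in replicate 1, 853.82 and 930.13 in replicate 2, and 27.2 and 28.98 in the series-level list. The remaining 6 regions of the pair were each 565 bp or narrower. What lies at these sites was not analysed here.

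**Figure D5:**
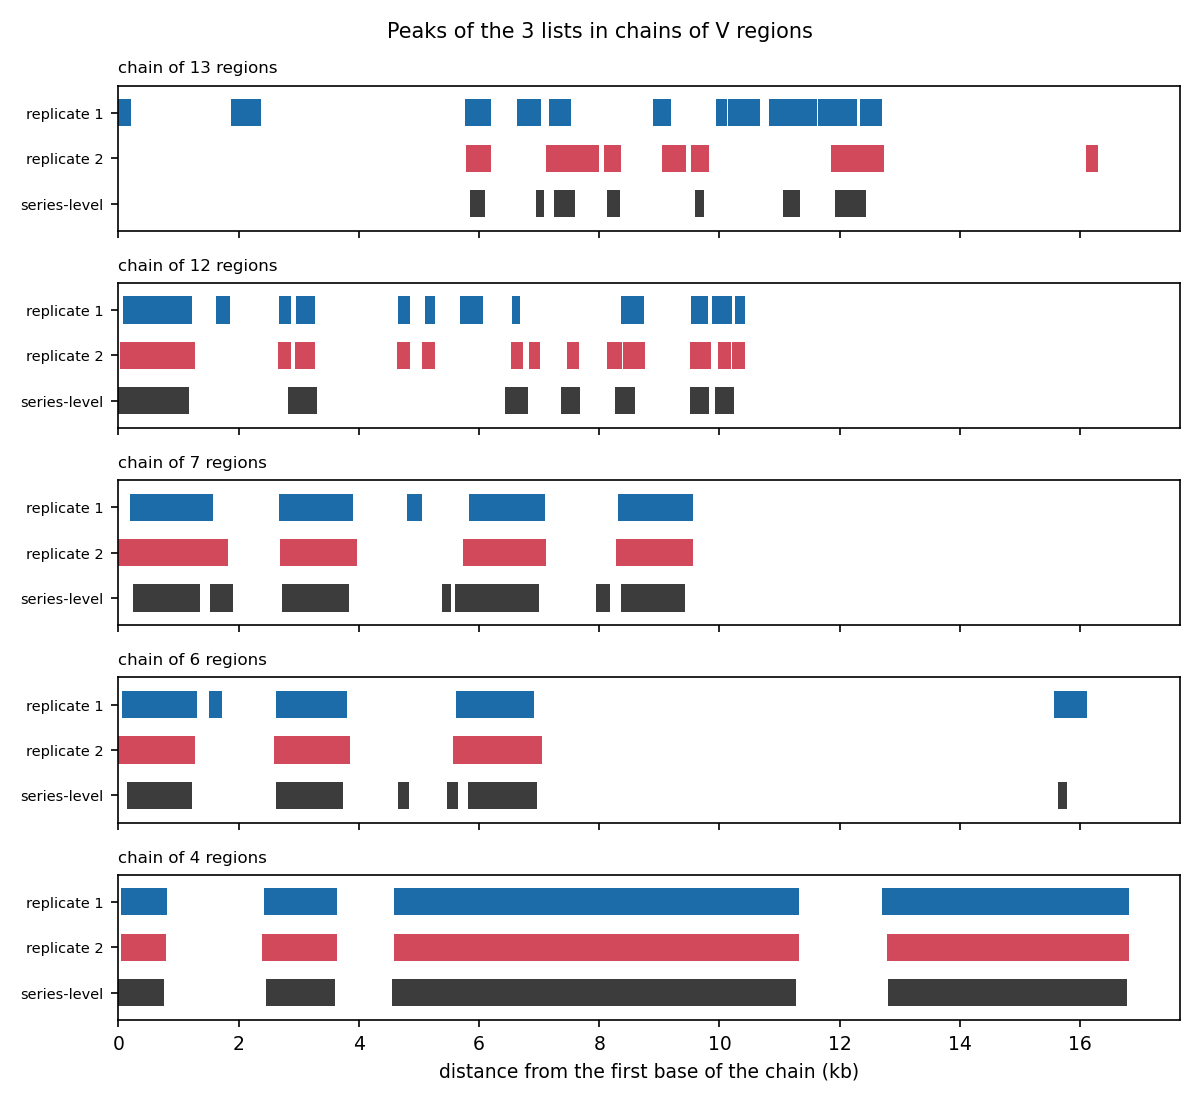
Peaks of replicate 1, replicate 2 and the series-level list in the 4 largest chains of V regions and in the chain of 4 regions on the right arm that holds the 6774 bp region (bottom), by distance from the first base of each chain in kb. Wide peaks at like spacing recur in the chains of 7 and 6 regions, and the 2 replicate 2 peaks at the centre of the bottom chain are 1 bp apart and look joined.

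Of the V peaks found in only 1 replicate, the highest in replicate 1 were from 6227273 to 6228207 (score 811.12, rank 134), 7988871 to 7991534 (782.4, rank 139) and 6172231 to 6176141 (760.28, rank 142), and the last 2 were 2664 and 3911 bp wide. All 3 overlapped series-level peaks, with top scores of 3.63, 17.62 and 9.54. The highest in replicate 2 were narrower, from 6088813 to 6089282 (308.78, rank 161), 13868799 to 13869148 (243.07, rank 205) and 1713809 to 1714058 (166.07, rank 287). Each of these also overlapped a series-level peak.

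The 2 ends of V differed in support. At the left end all lists had a peak within bases 1 to 371, with scores of 305.5, 82.14 and 14.32 in replicate 1, replicate 2 and the series-level list. At the right end only the series-level list had one, from 20923836 to 20924180 (24.43). The end of that peak set the length of V used here, and it was not checked against a WS220 genome, so it may run past the end of the assembled chromosome. These end regions were chosen after their values were seen.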

How the data were processed

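Per the submitters' processing notes, BWA was the aligner and ce10 the genome build. The file headers name WS220 of WormBase for the coordinates, which all lists were taken to share. The files' source columns give MACS for the replicate lists and MACS v2 for the series-level list. Caller settings, filters, how the inputs were used and how the series-level list was made were not stated in these sources. The deposited score is the authors' peak-caller value with no stated quantity, so it was ranked only within a list.

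Analyses used Python 3.11.15, numpy 2.4.6, scipy 1.17.1 and matplotlib 3.10.9. Chromosome lengths were the largest coordinate in any list, and positions are peak midpoints. Numbers were compared with length by exact binomial tests and shares by Fisher's exact test, all two-sided, with Benjamini-Hochberg adjustment over 29 tests and a threshold of 0.05. Each alternative was adjusted over the tests of its own setting or, where added later, with the new test in place of the one it varied. Intervals are exact 95% binomial intervals over peaks. They cover counting error, not variation between cultures. Scripts were tested on simulated data. The simulated peaks were placed independently of each other and uniformly along chromosomes, so clustering was not covered. The regions named were the 10 highest series-level scores, the 5 widest regions, the 3 largest chains, the 3 highest peaks of each replicate lacking in the other and the 3 longest gaps. Other regions were named after their values were seen. The members, lists and tests were chosen with earlier results of these data known. The alternatives were other backgrounds, score and width limits, overlap rules, joining distances, middle stretches, base pairs or genes as the measure, and each replicate left out.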

Additional observations from a re-analysis of the deposited data

How the results depend on the processing

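Of 205 alternative values over 27 settings, 146 kept their direction and side of the threshold. Ratios are observed to expected numbers, differences are V minus background in percentage points, and why a value changed was not tested. With II, III and IV as background, the replicate 1 middle section passed (ratio 0.84), as did its top 20% share (difference 8.51). There the middle-section shares were 4.89 in replicate 1, no longer passing, and -3.41 in replicate 2. The series-level left section (0.80) and the replicate 2 top 20% share (9.16) no longer passed. With I added, the replicate 1 top 20% share passed (6.45). In the higher-scoring 50% of each list, these values no longer passed: series-level density (0.78), left section (0.75) and right section (0.71), the left sections of replicate 1 (0.75) and of regions (0.72), the middle section of regions (0.86), and the differences for the replicate 1 middle share (11.5), the replicate 2 top share (14.1) and replicate 1 sharing (10.3). The replicate 2 middle section was 1.08. With peaks within 500 bp joined, the replicate 1 middle section (0.77), replicate 2 density (0.81) and the replicate 1 share of 2 kb peaks (4.50) passed, while the replicate 1 middle share (6.06) and the series-level left section (0.73) did not. With peaks within 5000 bp joined, replicate 2 density (0.70), its middle (0.61) and right (0.64) sections, the middle sections of replicate 1 (0.74) and the series-level list (0.72), and the shares of 2 kb peaks in replicate 2 (13.0) and the series-level list (11.2) passed. The middle share (4.23) and sharing (2.33) of replicate 1 and the replicate 2 top share (10.4) then did not, and the replicate 2 middle share (-4.85) and the share in all lists (-0.47) were negative. Without replicate 1 or replicate 2, the ratio of regions lay between 0.70 and 0.79 and passed in both, while the section ratios were 0.65 to 0.76 (left), 0.80 to 0.85 (middle) and 0.65 to 0.77 (right) and did not pass without replicate 1. The share in all remaining lists then differed by -0.018 to 3.13. With 50% reciprocal overlap, counted over series-level peaks, the share in all lists passed (9.37). Against gene number replicate 2 passed (0.71). For the middle 50% of the chromosome the replicate 2 share was -2.15, and for the middle 20% the shares of replicate 2 (10.5), the series-level list (12.9) and regions (10.6) passed. At 1 kb, the width shares passed (5.45, 13.4 and 8.18 in replicate 1, replicate 2 and the series-level list). The replicate 2 share in the top 10% did not pass (7.51). By base pairs covered the ratios were 0.87 (replicate 1), 1.07 (replicate 2), 1.01 (series-level) and 0.87 (regions). Among settings chosen after seeing the data, the ratio was 0.80 for regions in all lists and 1.12 for regions of 1 kb or more. Replicate 1 sharing was 4.91 in its top 20%, -3.78 in its lowest 20% and 3.47 without chains. Without chains the top 20% shares were 4.98 (replicate 2) and -0.67 (series-level). Without the 4 regions between 17115342 and 17132160 the differences in 2 kb peaks were 1.73, 2.36 and 2.76 in the same order of lists, and none passed with or without them. No paired analysis was possible because the input samples share the replicate numbers of the ChIP samples but no file of theirs was used here. Peak lists give no depth, and its part in which peaks a list lacks was not tested.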
